A study of Mus musculus with 6 samples.

Results

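The 6 genes described here are the measured members of the mouse Cyp2b subfamily of cytochrome P450 enzymes (Cyp2b9, Cyp2b10, Cyp2b13, Cyp2b19 and Cyp2b23) and Nr1i3, which encodes the constitutive androstane receptor (CAR). They were chosen by gene symbol from the 22180 genes that have a probe set with exactly 1 symbol in the array annotation, and all 6 were found, each with 1 such probe set. Each liver RNA sample was hybridised to 1 Affymetrix array that covers whole transcripts. The 3 cGK1-KO samples came from male C57BL/6N mice aged 2 months in which Prkg1, the gene of the cGMP-dependent protein kinase cGK1, is knocked out and which, per the series description, carry a smooth muscle rescue of it. The 3 WT samples came from male C57BL/6N mice of the same age, named wild type in the sample labels and control in the series description. The sources used here do not name the promoter that drives the rescue, and the labels do not say that the samples of a group came from separate mice. P-values therefore measure the spread between these samples, which may be technical in part.

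CAR is a nuclear receptor of hepatocytes that is held in the cytoplasm, moves to the nucleus after exposure to drugs such as phenobarbital, pairs there with the retinoid X receptor and switches on genes of drug and steroid metabolism. Cyp2b10, the mouse relative of human CYP2B6, is its best known target. Cyp2b9 and Cyp2b13 are expressed more strongly in female than in male mouse liver, where pulsed growth hormone secretion in males keeps them low through STAT5B, and their enzymes hydroxylate steroids. Cyp2b19 is known as an arachidonic acid epoxygenase of epidermal keratinocytes.

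The start regions of the Cyp2b genes are shown because the genes with the largest differences have nearly the same one. The sequences are those of RefSeq for GRCm38.p6, on the gene's own strand, from 250 bases before to 50 bases after the gene start, and all 6 genes had an entry. Capitals mark matches on either strand to AGGTCA, the half-site of many nuclear receptors, to TTGCNNAA, a form bound by C/EBP factors, and to ATAAAA, an element like the TATA box.
Cyp2b9 (chr7:26173159-26173458, plus strand): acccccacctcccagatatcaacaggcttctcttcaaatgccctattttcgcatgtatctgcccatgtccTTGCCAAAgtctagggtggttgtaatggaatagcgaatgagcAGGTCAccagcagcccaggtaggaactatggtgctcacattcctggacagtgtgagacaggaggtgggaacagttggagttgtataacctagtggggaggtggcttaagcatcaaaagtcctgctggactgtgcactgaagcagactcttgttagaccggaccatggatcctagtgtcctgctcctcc
Cyp2b13 (chr7:26061245-26061544, plus strand): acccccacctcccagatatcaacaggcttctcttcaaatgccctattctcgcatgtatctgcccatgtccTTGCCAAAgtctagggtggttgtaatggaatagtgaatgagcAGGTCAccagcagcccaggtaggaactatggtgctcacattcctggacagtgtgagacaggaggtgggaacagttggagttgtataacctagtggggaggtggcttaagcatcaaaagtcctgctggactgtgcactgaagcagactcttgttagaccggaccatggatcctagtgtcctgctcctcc
Cyp2b10 (chr7:25897408-25897707, plus strand): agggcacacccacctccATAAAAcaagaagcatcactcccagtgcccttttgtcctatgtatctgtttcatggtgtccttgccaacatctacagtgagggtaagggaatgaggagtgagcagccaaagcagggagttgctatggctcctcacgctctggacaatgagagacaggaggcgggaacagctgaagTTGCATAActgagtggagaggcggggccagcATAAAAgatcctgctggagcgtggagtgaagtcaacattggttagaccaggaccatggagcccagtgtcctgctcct

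The Cyp2b9 and Cyp2b13 windows were identical at 298 of 300 bases (99.3%). Counted from 1 at the 5′ end of the window, with the Cyp2b9 base first, the 2 differences were T48C and C104T. Against Cyp2b10, each of the pair was identical at 223 of 289 aligned bases (77.2%). The AGGTCA match began at position -138 from the gene start in Cyp2b9 and Cyp2b13, at -121 in Cyp2b19 and at -164 in Cyp2b23, and the Cyp2b10 window held none. Of all 32851 start regions in the RefSeq table, 16.3% held AGGTCA. TTGCNNAA occurred once in each of the 5 Cyp2b windows and in 10.8% of all windows, but at different places. In Cyp2b9 and Cyp2b13 it began at -180, and in Cyp2b10 at -58. A stretch of 40 bases around the place of the Cyp2b10 match is shown for all 5 genes. Capitals mark TTGCNNAA, which the Cyp2b9 and Cyp2b13 letters did not match there.
Cyp2b9 (chr7:26173334-26173373, plus strand): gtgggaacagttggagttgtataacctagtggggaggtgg
Cyp2b13 (chr7:26061420-26061459, plus strand): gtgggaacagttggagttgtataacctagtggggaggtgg
Cyp2b10 (chr7:25897584-25897623, plus strand): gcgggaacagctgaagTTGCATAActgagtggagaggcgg
Cyp2b23 (chr7:26686492-26686531, minus strand): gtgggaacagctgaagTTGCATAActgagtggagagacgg
Cyp2b19 (chr7:26757086-26757125, plus strand): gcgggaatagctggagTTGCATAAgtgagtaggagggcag

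ATAAAA began at -27 and at -233 in Cyp2b10, at -54 in Cyp2b23 and at -9 and -246 in Cyp2b19, did not occur in the Cyp2b9 and Cyp2b13 windows, and was present in 18.5% of all windows. The paired form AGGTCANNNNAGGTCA, which holds the AGGTCA half-site at both ends, occurred in 0.0152% of all windows, and the STAT-type forms TTCNNNGAA and TTCNNNNGAA in 8.30% and 6.95%. None of these 3 forms occurred in the windows of the 6 genes. The Nr1i3 window held no match to any of the 6 forms searched. A match is a description of the letters and not of binding, and the windows leave out enhancers farther away.

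Values below are log2 expression after RMA, the authors' normalization, on 1 array per sample, with n = 3 per group. The median of the whole table, 3.14, is used as the level under which a probe set is called dim. Levels of different probe sets are not set against each other, because probe sets differ in brightness.

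Cyp2b9 was far higher in cGK1-KO liver than in WT liver, and its difference was the largest of all 22180 genes in size. It lay at 9.98, 10.1 and 6.50 in cGK1-KO replicates 1 to 3, against 4.02, 2.33 and 2.56 in WT replicates 1 to 3. The groups did not overlap, with 2.48 log2 units between the lowest cGK1-KO array and the highest WT array. The cGK1-KO mean was 8.87 ± 2.06 and the WT mean 2.97 ± 0.91 (SD, n = 3 each). The log2 difference was 5.90 (SE 0.87, 95% confidence interval 3.95 to 7.85), a 59.8-fold ratio with an interval of 15.5 to 231. The limma p was 6.99e-05 and the adjusted p over all genes 0.0902, which did not pass the threshold of 0.05. WT replicates 2 and 3 were dim, so the fold is uncertain. Cyp2b9 in cGK1-KO replicate 3 stood 3.53 above the WT mean, and in replicates 1 and 2 it stood 7.01 and 7.17 above. Without cGK1-KO replicate 3, the lowest of its group, the difference was 7.09 and passed (limma adjusted p = 0.000526). Leaving out any other single array gave limma adjusted p-values of 0.168 to 0.456.

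Cyp2b13, like Cyp2b9, was highest in cGK1-KO replicates 1 and 2. It lay at 6.11, 6.38 and 2.96 in cGK1-KO replicates 1 to 3, against 2.29, 2.58 and 2.66 in WT replicates 1 to 3. Replicates 1 and 2 of the cGK1-KO group were high, while cGK1-KO replicate 3 was dim and lay 0.30 above the highest WT array. The means were 5.15 ± 1.90 in cGK1-KO and 2.51 ± 0.19 in WT (SD, n = 3 each), a difference of 2.64 (SE 0.74, 95% confidence interval 0.98 to 4.30, 6.22-fold). The limma p was 0.00574 and the adjusted p 0.306. Without cGK1-KO replicate 3 the difference was 3.73 and passed (limma adjusted p = 9.94e-05). Leaving out any other single array gave limma adjusted p-values of 0.350 to 0.695. All WT arrays were dim for Cyp2b13, so this fold is uncertain too. Transcripts of close Cyp2b relatives can bind each other's probes, and the probe sequences were not used here, so an own change of Cyp2b13 and binding of Cyp2b9 transcript cannot be told apart.

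Cyp2b10, the usual readout of CAR activity, differed less but more evenly. It lay at 4.97, 4.57 and 4.29 in cGK1-KO replicates 1 to 3, against 3.85, 3.70 and 3.35 in WT replicates 1 to 3. All cGK1-KO arrays were above all WT arrays, by at least 0.45. The means were 4.61 ± 0.34 in cGK1-KO and 3.63 ± 0.26 in WT (SD, n = 3 each). The difference was 0.98 (SE 0.20, 95% confidence interval 0.53 to 1.43, 1.97-fold), with a limma p of 0.000809 and an adjusted p of 0.221. Unlike Cyp2b9 and Cyp2b13, Cyp2b10 was above the dim level on all 6 arrays. Leaving out any single array gave differences of 0.80 to 1.14, none of which passed.

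Cyp2b19, the keratinocyte enzyme, was dim on all 6 arrays. It lay at 2.19, 2.38 and 2.66 in cGK1-KO replicates 1 to 3, against 2.08, 2.20 and 2.36 in WT replicates 1 to 3. The groups overlapped, and the difference was 0.20 (SE 0.16, 95% confidence interval -0.16 to 0.55, limma adjusted p = 0.690). Cyp2b23 was also dim on all 6 arrays, at 1.67, 1.66 and 1.43 in cGK1-KO replicates 1 to 3, against 1.35, 1.28 and 1.40 in WT replicates 1 to 3. Its groups were apart by only 0.027, and the difference was 0.24 (SE 0.13, 95% confidence interval -0.05 to 0.54, limma adjusted p = 0.546). At this signal a fall or a small difference of either gene could hardly show. A large rise could show, as it did for Cyp2b13, which was dim on all WT arrays.

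Nr1i3, the gene of the receptor itself, was bright and differed little between the groups. It lay at 8.66, 8.48 and 8.20 in cGK1-KO replicates 1 to 3, against 8.66, 8.65 and 8.50 in WT replicates 1 to 3. The groups overlapped: cGK1-KO replicate 1 lay at the level of the highest WT array, and cGK1-KO replicate 3 was the lowest of the 6 arrays. The means were 8.45 ± 0.24 in cGK1-KO and 8.61 ± 0.09 in WT (SD, n = 3 each). The difference was -0.16 (SE 0.15, 95% confidence interval -0.50 to 0.18, limma adjusted p = 0.747), which spans ratios of 0.706 to 1.14. The array measures receptor transcript, not its place in the cell or its activity.

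**Figure D1:**
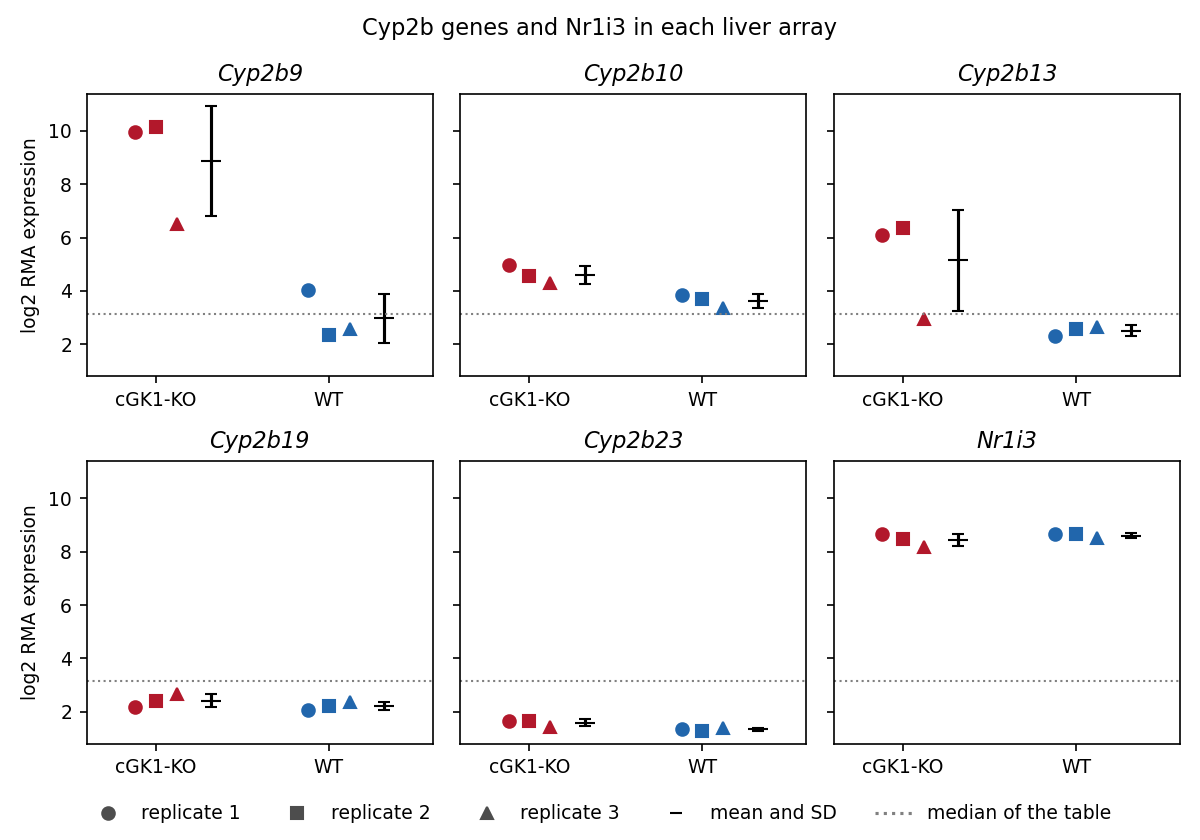
Log2 RMA expression of the 6 genes (y axis) in the 3 cGK1-KO and 3 WT arrays (x axis), with a marker shape for each replicate, the mean and SD in black, and a dotted line at the table median of 3.14. Cyp2b9 and Cyp2b13 are high in cGK1-KO replicates 1 and 2, at 9.98 and 10.1 and at 6.11 and 6.38, and lower in cGK1-KO replicate 3, at 6.50 and 2.96. Levels are to be read within a panel.

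Of the 6 genes, 0 passed an adjusted p of 0.05 in limma, where 0% of all tested genes did, and 3 (Cyp2b9, Cyp2b10 and Cyp2b13) were higher in cGK1-KO at an unadjusted p under 0.05, where 5.06% of all genes were. The groups did not overlap, with cGK1-KO above WT, in 4 of the 6 genes (the same 3 and Cyp2b23), against 7.61% of all genes. All 5 Cyp2b genes had positive differences, as did 50.2% of all genes, and Cyp2b19 and Cyp2b23 were within error. Exact 2-sided permutation tests over the arrays gave p = 0.1 for each of the 4 genes without overlap, 0.3 for Cyp2b19 and 0.4 for Nr1i3, and 0.1 is the smallest p that 3 against 3 arrays allow.

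**Figure D2:**
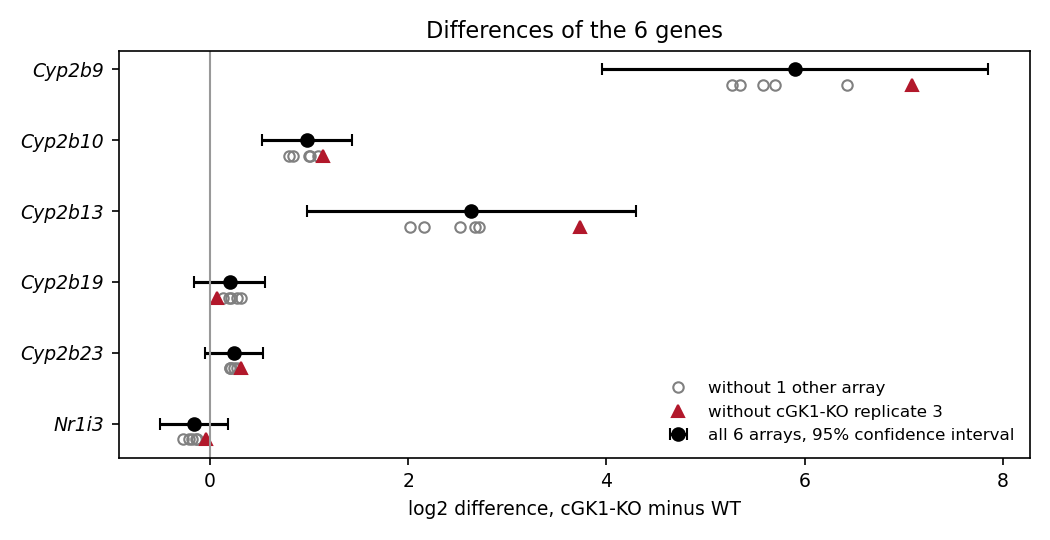
Log2 differences, cGK1-KO minus WT (x axis), of the 6 genes (y axis). Black points with bars are the limma estimates from all 6 arrays with 95% confidence intervals, open circles leave out 1 other array, and red triangles leave out cGK1-KO replicate 3. Without that array the difference is 7.09 for Cyp2b9 and 3.73 for Cyp2b13, above the values of 5.90 and 2.64 from all arrays.

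The estimated difference of Cyp2b9 was larger than those of Cyp2b10, Cyp2b13 and Nr1i3. The genes were compared by the log2 value of Cyp2b9 minus that of the other gene on the same array. Unequal brightness of probe sets enters this value, so only its changes between arrays are read, not its level. Set against Cyp2b10, this value was 5.01, 5.57 and 2.21 in cGK1-KO replicates 1 to 3, against 0.17, -1.37 and -0.79 in WT replicates 1 to 3. Its shift between the groups, cGK1-KO minus WT, was 4.92. Set against Cyp2b13, it was 3.87, 3.76 and 3.54 in cGK1-KO replicates 1 to 3, against 1.72, -0.26 and -0.10 in WT replicates 1 to 3. Within the cGK1-KO group the spread of this value was small, although both genes were lower by over 3 log2 units in cGK1-KO replicate 3. The shift was 3.26 against Cyp2b13 and 6.06 against Nr1i3. Cyp2b9 was dim in WT replicates 2 and 3, which makes the size of every shift uncertain. Cyp2b13 was dim too in all WT arrays and in cGK1-KO replicate 3. Against Cyp2b19 and Cyp2b23 the shift was 5.70 and 5.66. Both genes were dim on all 6 arrays, so these values add little to the Cyp2b9 difference itself. In all 5 pairs the groups did not overlap, and the exact 2-sided permutation p was 0.1, with an adjusted p of 0.1 over the 5 pairs, the smallest possible.

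The Cyp2b genes lie together on chromosome 7, within a larger cluster of Cyp2 genes, and Nr1i3 lies on chromosome 1. In the order of the RefSeq table, Cyp2b10, Cyp2b13 and Cyp2b9 follow each other among the measured genes, and Cyp2b23 and Cyp2b19 follow after 6 other measured genes. These 6 and the 5 nearest measured genes on each side make 16 neighbours. Of the 16, 3 were higher at an unadjusted p under 0.05 (5.06% of all genes) and 0 were lower (5.46% of all genes). The 3 were Cyp2a4, a steroid hydroxylase with more expression in female liver (1.34, SE 0.42, limma adjusted p = 0.342), its close relative Cyp2a5 (0.71, SE 0.28, 0.429) and the vomeronasal receptor gene Vmn1r184 (0.45, SE 0.17, 0.398). Cyp2a4 lay at 7.87, 7.09 and 6.27 in cGK1-KO replicates 1 to 3, against 6.30, 4.99 and 5.93 in WT replicates 1 to 3, and its groups overlapped. The Cyp2a5 difference was 0.32 without WT replicate 2. Vmn1r184 was dim on all 6 arrays. Differences of the 16 neighbours ran from -0.36 to 1.34, all below the 2.64 of Cyp2b13 and the 5.90 of Cyp2b9. The neighbours were added after the data were seen.

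**Figure D3:**
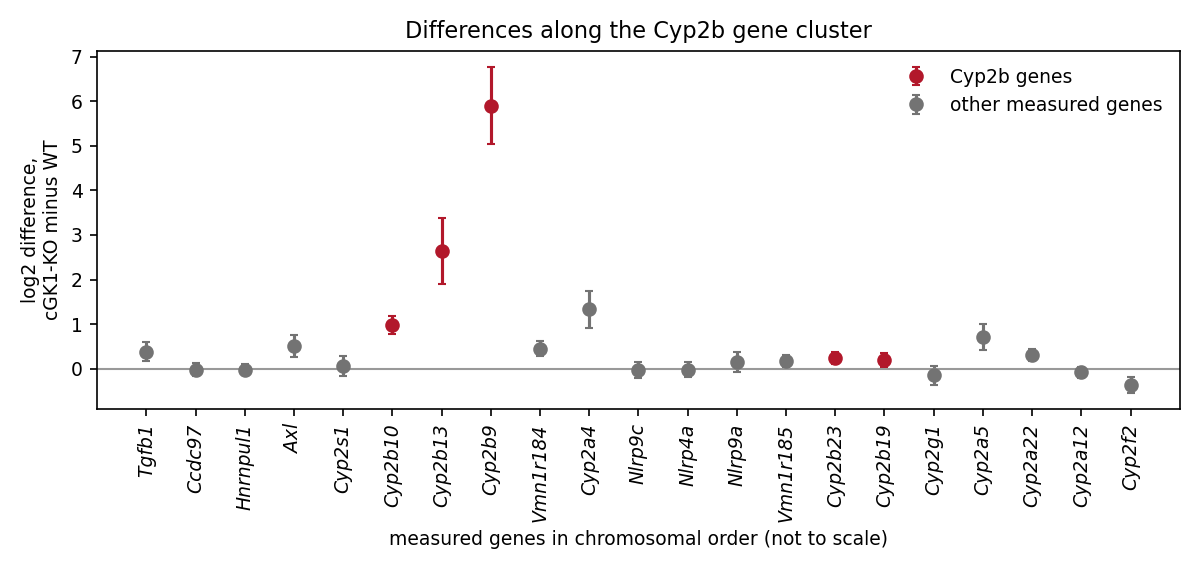
Log2 differences, cGK1-KO minus WT, with standard errors (y axis) of the measured genes along the Cyp2b cluster, in chromosomal order and not to scale (x axis), with the Cyp2b genes in red. Cyp2b10, Cyp2b13 and Cyp2b9 stand at 0.98, 2.64 and 5.90, while Cyp2b23 and Cyp2b19 stand at 0.24 and 0.20.

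Among the genes that act with CAR, negative differences outnumbered positive ones. Of 34 listed partners and coregulators 30 were measured, 21 with a negative and 9 with a positive difference (50.2% of all genes were positive). At an unadjusted p under 0.05, 1 was higher and 5 were lower (5.06% and 5.46% of all genes). Of the 30, 0 passed the adjusted threshold. The list's median difference was -0.08, against 0.00 over all genes. Rxra, the retinoid X receptor that CAR pairs with, differed by -0.07 (SE 0.12, limma adjusted p = 0.873). Nr1i2, which encodes the related drug receptor PXR, lay at 6.39, 6.30 and 6.44 in cGK1-KO replicates 1 to 3, against 6.66, 6.75 and 6.99 in WT replicates 1 to 3. All its cGK1-KO values were below all WT values (-0.42, SE 0.14, adjusted p = 0.348). Gadd45b, which encodes a coactivator of CAR and is also a CAR target, differed by -0.91 (SE 0.22, adjusted p = 0.248). The heme synthesis gene Alas1, needed for P450 enzymes, differed by -0.57, and the chaperone gene Hsp90aa1, whose product helps to hold CAR in the cytoplasm, by -0.48. Por, the P450 reductase gene, had no probe set with exactly 1 symbol and was not analysed here. The other partners in these counts, named after their values were seen, were the higher cochaperone gene Ptges3 (0.37) and the lower hepatocyte factor gene Hnf4a (-0.36). Leaving out single arrays gave 0 to 3 higher partners (3 without cGK1-KO replicate 3, 2 without cGK1-KO replicate 1, and 0 without cGK1-KO replicate 2, WT replicate 1 or WT replicate 2) and 2 to 6 lower ones (2 without WT replicate 3).

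Targets of CAR outside the Cyp2b subfamily did not share a direction. Of 40 measured of 47 listed, 7 were higher and 7 lower at an unadjusted p under 0.05 (5.06% and 5.46% of all genes). The median difference was 0.08, and 0 passed the adjusted threshold. Gstt3, a glutathione transferase gene, lay at 6.77, 6.38 and 5.85 in cGK1-KO replicates 1 to 3, against 5.26, 4.85 and 5.47 in WT replicates 1 to 3 (1.14, SE 0.24, limma adjusted p = 0.221). Its groups did not overlap, and without cGK1-KO replicate 3 the difference was 1.38 and passed (limma adjusted p = 0.0475). Leaving out single arrays gave limma adjusted p-values of up to 0.682. Thrsp, a lipogenic gene, differed by 0.68 and the aldehyde dehydrogenase gene Aldh1a7 by -0.56, neither past the threshold. Of the 40 targets, 2 passed without cGK1-KO replicate 3 and 0 without any other single array. Cyp2b10 stood at 0.98 beside targets with values in both directions.

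Genes with sex-biased expression in mouse liver are given beside Cyp2b9 and Cyp2b13, which belong to the female-biased class. Outside the Cyp2b subfamily, 38 of 44 listed female-biased genes were measured. Of these, 10 were higher and 2 lower at an unadjusted p under 0.05 (5.06% and 5.46% of all genes). The median difference was 0.27, and 0 passed the adjusted threshold. The organic anion transporter gene Slc22a26 lay at 6.90, 6.76 and 4.74 in cGK1-KO replicates 1 to 3, against 3.52, 2.85 and 3.21 in WT replicates 1 to 3. As in Cyp2b9, the groups did not overlap and cGK1-KO replicate 3 was the lowest of its group (2.94, SE 0.49, limma adjusted p = 0.145). Its relative Slc22a27 differed by 1.48, the proton pump subunit gene Atp6v0d2 by 1.82 and the sulfotransferase gene Sult3a1 by 1.01, none past the threshold. WT means of Atp6v0d2, Slc22a27 and Sult3a1 were dim, so the sizes of these differences are uncertain. The 2 lower genes, named after their values were seen, were the fatty acid hydroxylase gene Cyp4a14 (-0.59) and the acyl-CoA thioesterase gene Acot4 (-0.71). The Cyp4a14 difference was -0.30 without cGK1-KO replicate 3. Without cGK1-KO replicate 2 the count of higher genes was 16, and without WT replicate 3 that of lower genes was 1.

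Of 32 measured male-biased genes, of 36 listed, 19 were lower and 1 higher at an unadjusted p under 0.05 (5.46% and 5.06% of all genes). The median difference was -0.86, and 0 passed the adjusted threshold. The oxysterol hydroxylase gene Cyp7b1 lay at 5.88, 5.39 and 7.35 in cGK1-KO replicates 1 to 3, against 8.22, 9.90 and 9.56 in WT replicates 1 to 3. The elongase gene Elovl3 differed by -3.70, the fatty acid hydroxylase gene Cyp4a12b by -3.14 and Cyp2u1 by -0.97. The 1 higher gene, named after its value was seen, was Cyp2d40 (0.72), and without cGK1-KO replicate 1, cGK1-KO replicate 2 or WT replicate 2 the count was 0. In cGK1-KO replicate 3, which had the lowest Cyp2b9 and Cyp2b13 of its group, the median of the male-biased genes stood -0.20 from the WT mean, against -1.01 and -1.16 in cGK1-KO replicates 1 and 2. The median of the female-biased genes did not follow that order, and stood 0.40, 0.12 and 0.23 above the WT mean in cGK1-KO replicates 1 to 3. Without cGK1-KO replicate 3, 11 of the 32 male-biased and 4 of the 38 female-biased genes passed the adjusted threshold. Leaving out any other single array, 0 of either list passed. The growth hormone axis had 3 of 22 measured genes higher and 3 lower at an unadjusted p under 0.05 (5.06% and 5.46% of all genes). Its median difference was 0.00. The higher ones were the signalling inhibitor gene Socs3 (0.50), Stat3 (0.44) and Stat5b (0.41), and the lower ones the growth factor gene Igf1 (-0.72), Hnf4a (-0.36) and the repressor gene Bcl6 (-1.09), none past the threshold. Stat5b and Bcl6 were named after their values were seen. Single arrays moved several of these values. Bcl6 differed by -0.56 without WT replicate 2 and by -1.68 without WT replicate 1, and its groups overlapped. Igf1 differed by -0.41 without cGK1-KO replicate 2, and Stat5b by 0.23 without the same array. The count of lower genes on this axis was 0 without WT replicate 3, and 1 without cGK1-KO replicate 1, cGK1-KO replicate 2 or WT replicate 2.

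**Figure D4:**
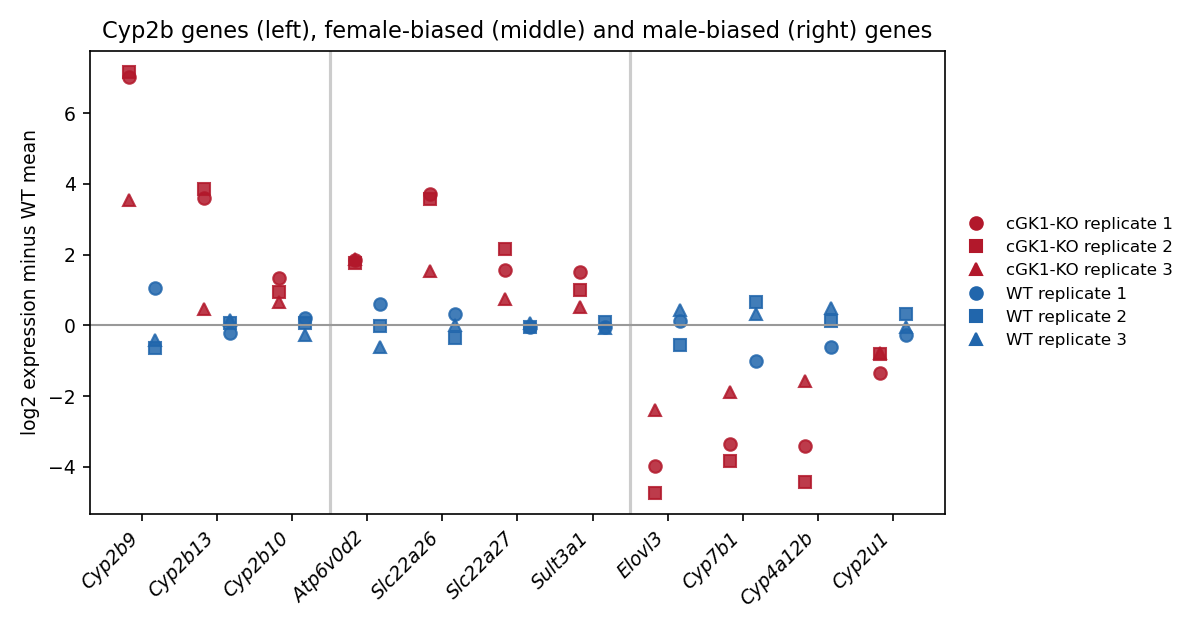
Log2 expression minus the WT mean (y axis) of Cyp2b9, Cyp2b13 and Cyp2b10 and of the named female-biased and male-biased genes (x axis), with cGK1-KO arrays in red, WT arrays in blue and a marker shape for each replicate. In cGK1-KO replicate 3 Cyp2b9 stands 3.53 above the WT mean, against 7.01 and 7.17 in cGK1-KO replicates 1 and 2.

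By profile over the 6 arrays, the genes most like each member were sought among 12214 genes with a mean above the dim level, with the members and predicted gene models left out. The measure was the root mean square difference in log2 units after each gene was centred on its own mean. The nearest to Cyp2b13 was Slc22a26, at 0.52, where Cyp2b13 itself spread by 1.72 about its mean. Ifi205 (0.86) and the orosomucoid gene Orm2 (0.87) followed. Nearest to Cyp2b9, with a spread of 3.22, were the acute phase genes Saa2 at 1.34, Orm2 at 1.56 and Lcn2 at 1.57. The measure is not scaled to the spread of a gene, so distances of members with unlike spreads are not set against each other. Nearest to Cyp2b10 were the retinol dehydrogenase gene Rdh9 at 0.20, Cd209a at 0.22 and Slfn2 at 0.22, where Cyp2b10 spread by 0.55. Nr1i3, with a spread of 0.17, was nearest to Ciao3 (0.028), Cnot9 (0.033) and Mcrip2 (0.038). The nearest genes to the dim Cyp2b19 were Fam184b, Hlx and C8a, and those to the dim Cyp2b23 were Lrrc2, Ebpl and Sgce, at 0.035 to 0.050 by the same measure.

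Acute phase genes and markers of other cells are given beside the Cyp2b differences. Of 24 measured acute phase genes 18 were higher and 1 lower at an unadjusted p under 0.05 (5.06% and 5.46% of all genes). The median difference was 0.61. Examples were Apcs (2.14), Lcn2 (3.70), Orm2 (3.46) and the metallothionein gene Mt2 (1.42), none past the threshold. Without cGK1-KO replicate 3, 6 of the 24 passed, Apcs, Lcn2, Orm2 and Hamp among them. Apcs and Lcn2 also passed with the dim filter (limma adjusted p = 0.0287 and 0.0344) and with the variance prior that followed intensity (0.0202 and 0.0251), and Lcn2 without WT replicate 3 (0.0406). The 1 lower gene, named after its value was seen, was the hepcidin gene Hamp (-4.49), and the count was 0 without cGK1-KO replicate 1 or without any 1 WT array. Hamp lay at 3.30, 5.92 and 12.1 in cGK1-KO replicates 1 to 3, against 11.1, 11.8 and 11.8 in WT replicates 1 to 3. The groups overlapped, since cGK1-KO replicate 3 was above every WT array. The Hamp difference was -2.59 without cGK1-KO replicate 1, and -6.97 without cGK1-KO replicate 3, where it passed (limma adjusted p = 0.00569). The list's median stood 0.61, 1.00 and 0.41 above the WT mean in cGK1-KO replicates 1 to 3. All 15 macrophage markers had positive differences (50.2% of all genes), 12 of them at an unadjusted p under 0.05 (5.06% of all genes). Their summed level on the log2 scale ran from 9.90 to 11.1 in cGK1-KO and from 9.49 to 9.60 in WT. Among its defining markers, Adgre1 averaged 5.45 ± 0.82 in cGK1-KO and 4.41 ± 0.20 in WT (SD, n = 3 each), and none was at 0. Higher at an unadjusted p under 0.05 were also 4 of 13 measured neutrophil markers and 4 of 17 stellate and fibroblast markers. Of 12 endothelial and 13 measured lymphocyte markers, 2 each were higher. Among these 4 lists, 1 stellate and fibroblast marker was lower, and 8 neutrophil and 7 lymphocyte markers were dim on average. The part of these cell types and of the acute phase genes in the Cyp2b differences was not tested. In bulk tissue, a change in the number of cells of a type and a change in RNA per cell cannot be told apart. Keratinocyte markers, relevant to Cyp2b19, had 0 of 10 measured genes at an unadjusted p under 0.05, and 7 were dim. Of all genes, 5.06% were higher and 5.46% lower at that p.

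**Figure D5:**
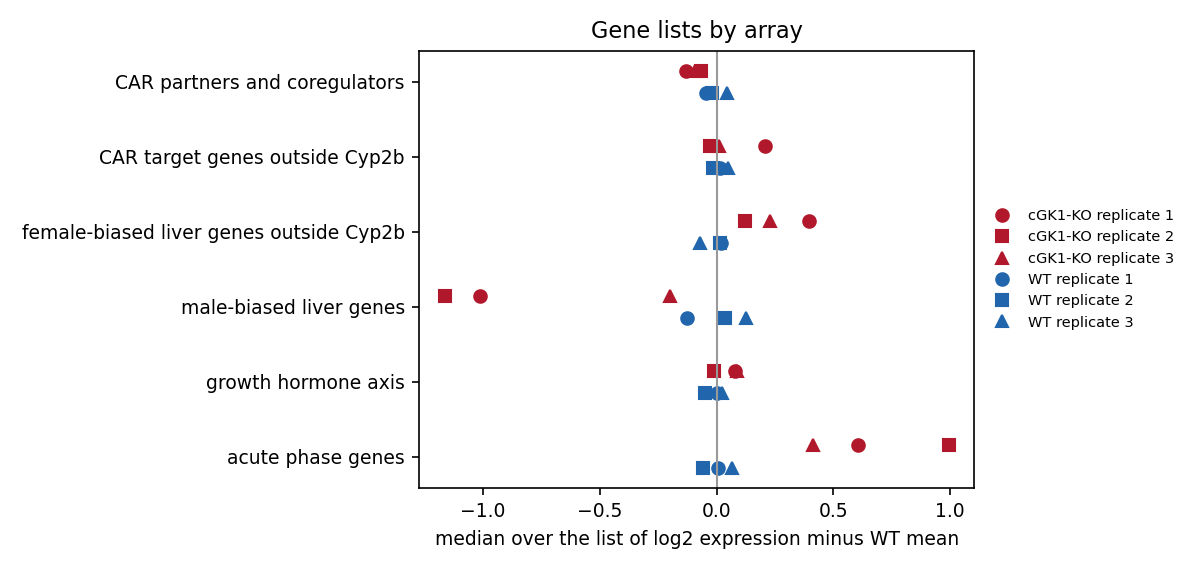
Median over each gene list of log2 expression minus the WT mean (x axis) for 6 gene lists (y axis), with cGK1-KO arrays in red, WT arrays in blue and a marker shape for each replicate. The male-biased list stands at -1.01 and -1.16 in cGK1-KO replicates 1 and 2 and at -0.20 in cGK1-KO replicate 3, while the CAR partners stand at -0.13 to -0.07 in cGK1-KO arrays.

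For the whole series, hepatocyte markers were abundant in both groups, with a summed log2 level of 15.9 in every cGK1-KO array and 15.9 to 16.0 in WT arrays. The brightest genes weigh most in this sum. Of the 14 measured, 1 was higher and 4 were lower at an unadjusted p under 0.05 (5.06% and 5.46% of all genes), with a median difference of -0.05. Correlations across genes, which are not independent replicates, were 0.978 to 0.983 within cGK1-KO. Those of cGK1-KO replicate 3 were 0.981 to 0.983 with the WT arrays, and 0.978 and 0.979 with cGK1-KO replicates 1 and 2. Correlations of cGK1-KO replicates 1 and 2 with the WT arrays are not given. Nearness to WT is therefore not shown to be particular to cGK1-KO replicate 3. Prkg1, the targeted gene, lay near the dim level, with means of 3.19 in cGK1-KO and 3.08 in WT. It did not differ detectably (0.11, SE 0.15, limma adjusted p = 0.837). Neither the deleted part of the gene nor the transcript that the rescue adds is named in the labels, and this value is therefore no check of them.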

How the data were processed

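Mouse liver RNA was measured in 6 samples, on 1 array each. The log2 expression values were made by the authors with Affymetrix Expression Console 1.4.1 and RMA, per the submitters' processing notes, and deposited as a table of 41345 probe sets, with array medians of 3.11 to 3.16. RMA brings the arrays to a common distribution, so a shift of most transcripts would not be visible. No genome build, probe position or detection call of the array was used here, and the number of arrays limits the precision.

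Probe sets with exactly 1 gene symbol (23521, against 1814 with several and 16010 not in the annotation) were reduced to the brightest per gene, which left 22180 genes. Group was fitted with lmFit and eBayes of limma 3.58.1 (statmod 1.5.0) in R 4.3.3 over all genes, with 2-sided p-values, Benjamini-Hochberg adjustment and a threshold of 0.05. Members and their within-array differences from Cyp2b9 were also tested by exact permutation. No dim filter was used. Gene lists are described by counts and medians, with no set test. The fit was tested on simulated data. The members and lists were chosen with earlier results of these data known. Genes named are the 6 members, up to 4 genes with the smallest p in each pathway list, the 3 nearest profiles per member, Nr1i2, Rxra and Prkg1. The neighbours at p under 0.05 and defining cell markers were named after their values were seen. Alternatives varied normalization, dim filter, probe set choice, variance prior, array weights, replicate block and single arrays. Same-numbered arrays deviated together with correlations of 0.006 to 0.053, so the numbers were not taken to pair the samples.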

Additional observations from a re-analysis of the deposited data

How the results depend on the processing

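The differences of the 6 genes kept their sign in all 14 alternatives (13 for Cyp2b19 and Cyp2b23, which the dim filter leaves out). Adjusted p-values passed 0.05 only for Cyp2b9 when the variance prior followed intensity (difference 5.90, adjusted p = 0.0428), and for Cyp2b9 and Cyp2b13 without cGK1-KO replicate 3. Leaving out each array in turn gave 5.27 to 7.09 for Cyp2b9 and 2.02 to 3.73 for Cyp2b13. With 2 arrays left in a group the exact 2-sided permutation p of the 5 within-array comparisons was 0.1 to 0.2, and 0.1 is the smallest possible there. With the replicate number as a block, the difference of Cyp2b9 was 5.90 (adjusted p = 0.0752), that of Cyp2b13 2.64 (0.268) and that of Cyp2b10 0.98 (0.163), and no member passed. Over all genes, 0 passed in the main comparison, 15 with the dim filter, 25 with the intensity-dependent prior and 1 (Elovl3) with the replicate block. Leaving out single arrays gave 0 to 66 (66 without cGK1-KO replicate 3, and 3, namely Lcn2, Rabggtb and Snord13, without WT replicate 3). Genes at an unadjusted p under 0.05 numbered 2334, and 1543 to 2734 without single arrays. Among the list counts, higher CAR partners numbered 1, with 2 after further quantile normalization and 0 after centring, with the dim filter, with that prior and with the block, and 0 to 3 without single arrays. Higher CAR targets numbered 11 with the block, against 7. Lower acute phase genes numbered 1, with 0 under the robust prior and 0 to 1 without single arrays. Without single arrays, lower CAR partners ran from 2 to 6, higher female-biased genes from 9 to 16 and lower ones from 1 to 3, higher male-biased genes from 0 to 1, and lower growth hormone axis genes from 0 to 3. The causes were not tested. Dim signal limits Cyp2b19, Cyp2b23 and the WT levels of Cyp2b9 and Cyp2b13.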
